A study of Homo sapiens with 12 samples.

Results

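The interferon regulatory factors are DNA-binding transcription factors that carry interferon and danger signals to the genome, and 8 of them, IRF1, IRF2, IRF3, IRF4, IRF5, IRF7, IRF8 and IRF9, were followed here among 60666 genes counted by RNA-seq in the bladder carcinoma cell line HT1376. Members were chosen by name, whatever their values, as the rows of the count table that carry 1 of these 8 symbols. The series held 12 libraries in 4 groups of 3. HT1376 CT, the CRISPR control line made with a guide RNA to luciferase and labelled WT, and HT1376 FOXP3 KO, made with CRISPR/Cas9 and guide RNAs to FOXP3, the transcription factor best known from regulatory T cells, were each left untreated (the label reads UTR, taken here as untreated) or given IFNγ at 100 ng/mL for 48 hours. The knockout cells were single-cell clones per the methods of the study, so a difference between the lines cannot be told apart from a difference between clones. Nothing stated that the 3 libraries of a group came from separate cultures, so p-values measure only the spread between these libraries, which may be technical.

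Type II interferon works through a short chain. IFNγ binds its receptor, the kinases JAK1 and JAK2 pass the signal on, and GAS elements receive it in promoters such as that of IRF1. IRF1 then activates genes with IRF elements, IRF2 competes for the same elements, and IRF9 is the DNA-binding subunit of the ISGF3 complex. IRF3, IRF5 and IRF7 are switched on at the protein level by kinases downstream of nucleic acid sensors and Toll-like receptors, whereas IRF4 and IRF8 are known mainly from lymphoid and myeloid cells.

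Stretches of promoter with a GAS or IRF element are shown first because these are the letters that the IFNγ chain is known to read. RefSeq promoter windows of GRCh38.p14, 250 bases before to 50 after a start, were at hand for 5 of the 8 members in 9 windows, with 4 windows for IRF5, 2 for IRF8 and 1 each for IRF1, IRF4 and IRF9. Capitals mark the matched element, and each stretch is written 5′ to 3′ on the strand of the gene.
IRF1 at chr5:132490878-132490907, minus strand, GAS element: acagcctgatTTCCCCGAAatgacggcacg
IRF9 at chr14:24161192-24161221, plus strand, GAS element: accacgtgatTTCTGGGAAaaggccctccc
IRF9 at chr14:24161219-24161248, plus strand, IRF element: ccctggaggaGAACTGAAActtagggtggg
IRF8 at chr16:85902703-85902732, plus strand, IRF element: gtatctgcctGAAAGGAAAgggcagatgaa
IRF5 at chr7:128940627-128940656, plus strand, IRF element read on the other strand: gtctagccacTTTCGTTTCccctggggccg

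The GAS element was searched as TTCNNNGAA, which reads the same on both strands, and the IRF element as GAANNGAAA on both strands. The IRF1 element began 124 bases before the start, and those of IRF9 began 63 and 36 bases before it and did not overlap each other. Matches of IRF8 and IRF5 began 117 and 33 bases before the start of the window that held them. For each of these genes that was 1 window, and its other windows held no match. Across 35116 promoter windows of the same length, 7.66% held a GAS element and 7.66% an IRF element. Forkhead motifs, the kind that FOXP3 is known to bind, were searched as TAAACA and TGTTTAC, which 12.3% and 3.42% of promoters held, and none of the 9 member windows held either. The IRF4 window held none of these motifs. A match is a description of letters, not of a bound site.

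The libraries held 4490684 to 39270042 counts, and the 3 counts that a count of 0 still allows stood for 0.0764 to 0.668 CPM, the counts of a gene scaled to the library total, for counting error only. FOXP3 itself had at most 3 counts in any library and 8 in all 12, so its level could not check the labels of the lines. Of 14 urothelial and other epithelial markers, 12 averaged at least 1 CPM over all 12 libraries and UPK3A was at 0. No marker on the lists of T cells, B and plasma cells or endothelium averaged 1 CPM over the 12 libraries, although CD3E averaged 1.20 CPM in CT with IFNγ, and of 4 melanocyte markers only PMEL did. Other markers moved with the line: the summed level of 8 myeloid and dendritic cell markers was 3.45 to 9.67 CPM in the HT1376 CT libraries and 95.4 to 265 CPM in the FOXP3 KO libraries, carried by CSF1R and XCR1 with CLEC9A at 0, whereas ITGAM averaged 1.46 and 3.40 CPM in CT, untreated and with IFNγ, and 0.467 and 1.14 CPM in FOXP3 KO. That of 5 fibroblast markers was 24.5 to 63.2 CPM in CT against 442 to 703 CPM in FOXP3 KO, carried by COL1A2, DCN and LUM, whereas COL1A1 averaged 28.8 and 17.1 CPM in CT and 7.77 and 6.42 CPM in FOXP3 KO. Their part in the differences between the lines was not tested. In bulk RNA, fewer cells that express a gene and less RNA per cell cannot be told apart.

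Counts of the members differed widely. IRF1 had 56934 counts over the 12 libraries, IRF3 7801, IRF2 6340, IRF7 2224 and IRF9 890. IRF8 had 45, IRF5 31 and IRF4 4, and a gene entered a comparison only with at least 10 counts over its libraries. All 7 members other than IRF4 were tested for IFNγ in each line and for the lines under IFNγ, and 5 for the untreated lines. CPM below are scaled with the TMM factors of edgeR, and a difference is called where the adjusted p of edgeR's quasi-likelihood test over all genes tested was under 0.05.

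IRF1, the activator at the head of the IFNγ chain, gave the strongest response of the members in HT1376 CT by p-value. It is on chromosome 5 at 132440440 to 132508719, minus strand, and its untreated CT libraries stood at 57.0, 67.7 and 63.7 CPM, against 871, 855 and 909 CPM with IFNγ. The treated libraries were all far above the untreated ones. IRF1 was 14.2-fold higher, or 3.83 on the log2 scale (standard error, SE, 0.11, adjusted p = 1.7e-09), rank 8 by p-value among 24416 genes. The knockout line held 55.1, 45.3 and 52.6 CPM untreated and 375, 370.5 and 389 CPM with IFNγ. Here too the groups were wide apart, and IRF1 rose 7.50-fold, by 2.91 on the log2 scale (SE 0.11, adjusted p = 6.9e-07).

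**Figure D1:**
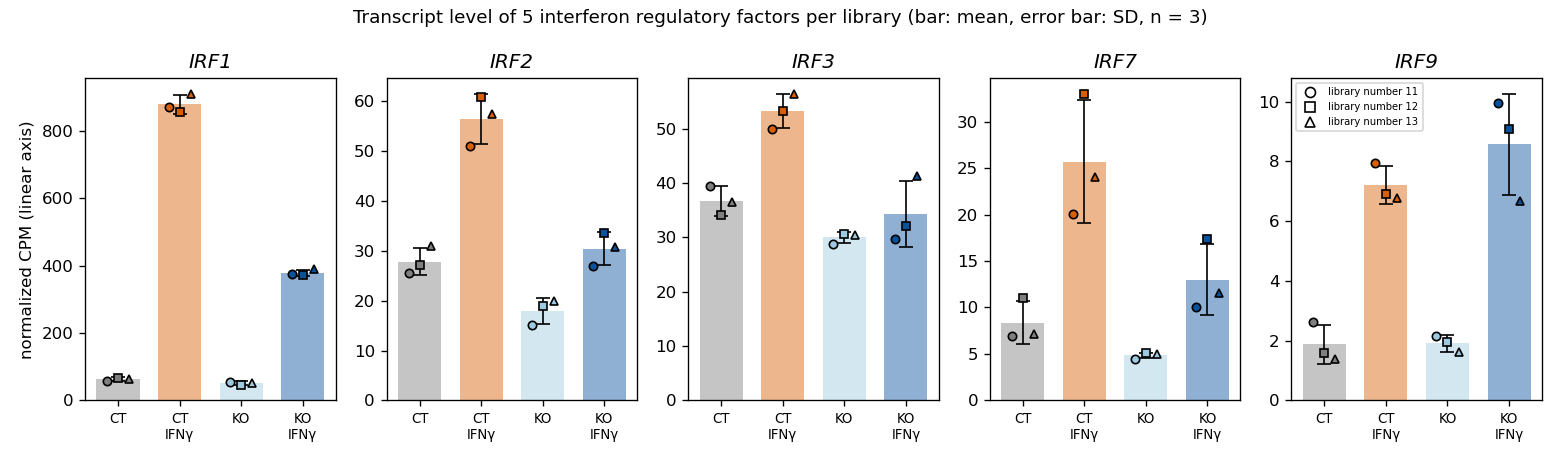
Normalized CPM (linear axis from 0, a separate scale for each gene) of IRF1, IRF2, IRF3, IRF7 and IRF9 in HT1376 CT and HT1376 FOXP3 KO (KO) libraries, untreated or with IFNγ; points are libraries, bars the mean and error bars the SD of 3. IRF1 averaged 878 CPM with IFNγ in CT and 378 CPM in KO, from 62.8 and 51.0 CPM untreated, while IRF9 reached 7.21 and 8.57 CPM.

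IRF2, the competitor of IRF1 at shared elements, moved less. It lies on chromosome 4 at 184385702 to 184474558, and in HT1376 CT it went from 25.6, 27.1 and 30.9 CPM to 51.0, 60.9 and 57.5 CPM with IFNγ. The groups did not overlap, and the log2 fold change was 1.04 (SE 0.13, adjusted p = 0.000598). Untreated FOXP3 KO libraries held 15.0, 18.9 and 19.98 CPM and the treated ones 27.0, 33.6 and 30.7 CPM. Although these groups did not overlap either, the log2 fold change of 0.78 (SE 0.16, adjusted p = 0.0668) missed the threshold. It passed in the fits with the replicate number as a block (0.78, adjusted p = 5.7e-10, and 0.000113 with the bias-adjusted deviance) and in 3 fits without it, with no filter (adjusted p = 0.00477), by DESeq2 (0.00431) and in 1 fit over all 12 libraries (0.0130).

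IRF3, the constitutive factor downstream of nucleic acid sensors, is on chromosome 19 at 49659569 to 49665875. In HT1376 CT its libraries were at 39.5, 34.1 and 36.6 CPM untreated and at 50.05, 53.3 and 56.4 CPM with IFNγ, without overlap. The rise was 1.48-fold, a log2 fold change of 0.56 (SE 0.12, adjusted p = 0.0200), and it missed the threshold when any of 3 libraries was left out (untreated 12 or 13, or treated 13), with adjusted p up to 0.0946. For the knockout line the values were 28.8, 30.7 and 30.5 CPM untreated and 29.7, 32.1 and 41.3 CPM with IFNγ. The treated library 13 was the highest, the treated library 11 lay within the untreated range so that the groups overlapped, and the log2 fold change was 0.21 (adjusted p = 0.999, 95% interval -0.09 to 0.52).

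IRF7, the factor that amplifies type I interferon and is itself an interferon-stimulated gene, is on chromosome 11 at 612553 to 615983. Untreated HT1376 CT libraries held 6.97, 11.0 and 7.14 CPM and treated ones 20.04, 33.0 and 24.0 CPM. Library 12 was the highest of both groups, the groups did not overlap, and IRF7 was 3.11-fold higher (log2 fold change 1.64, SE 0.24, adjusted p = 0.00161). With FOXP3 knocked out it went from 4.50, 5.08 and 4.95 CPM to 10.1, 17.4 and 11.5 CPM. That rise was 2.71-fold (log2 fold change 1.44, SE 0.25, adjusted p = 0.0265). It missed the threshold when any of the 3 untreated libraries or the treated library 13 was left out, with adjusted p of 0.0563 to 0.167.

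IRF9, the DNA-binding subunit of ISGF3, is on chromosome 14 at 24161234 to 24168043 and carried both elements printed above. Its HT1376 CT libraries stood at 2.63, 1.59 and 1.40 CPM untreated and at 7.94, 6.92 and 6.76 CPM with IFNγ. Those of HT1376 FOXP3 KO stood at 2.14, 1.96 and 1.61 CPM and at 9.96, 9.07 and 6.69 CPM. Treated and untreated libraries were apart in both lines, and the ranges of the 2 lines overlapped within each treatment. IRF9 rose 3.94-fold in CT (log2 fold change 1.98, SE 0.32, adjusted p = 0.00290) and 4.53-fold in FOXP3 KO (2.18, SE 0.27, adjusted p = 0.00318).

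IRF8, the lineage factor of monocytes and dendritic cells, was counted only at the edge of detection. It lies on chromosome 16 at 85899116 to 85922606, and no untreated HT1376 CT library held a count, while the treated ones held 4, 4 and 20 counts. Against a floor of 3 counts over the 3 untreated libraries it was at least 19.3-fold higher with IFNγ (adjusted p = 0.0183). The call was lost without the untreated library 13 (adjusted p = 0.0751), and without the treated library 13 the gene fell under the 10 counts needed for a test. The FOXP3 KO libraries had 4, 0 and 2 counts untreated and 4, 0 and 7 with IFNγ, which overlapped (adjusted p = 0.999).

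IRF5, a factor of Toll-like receptor signalling, is on chromosome 7 at 128937457 to 128950038, and IRF4, a factor of lymphocytes and plasma cells, on chromosome 6 at 391739 to 411443. IRF5 held 0, 7 and 0 counts in untreated CT, 7, 0 and 3 in treated CT, 0, 1 and 1 in untreated FOXP3 KO, and 1, 2 and 9 in treated FOXP3 KO. No difference of IRF5 was detectable at this depth, with adjusted p of 0.824 and 0.999 for IFNγ in CT and in FOXP3 KO. IRF4 had at most 2 counts in a library and was at 0 in 9 of 12. Its level was therefore at or under the floor in every library.

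**Figure D2:**
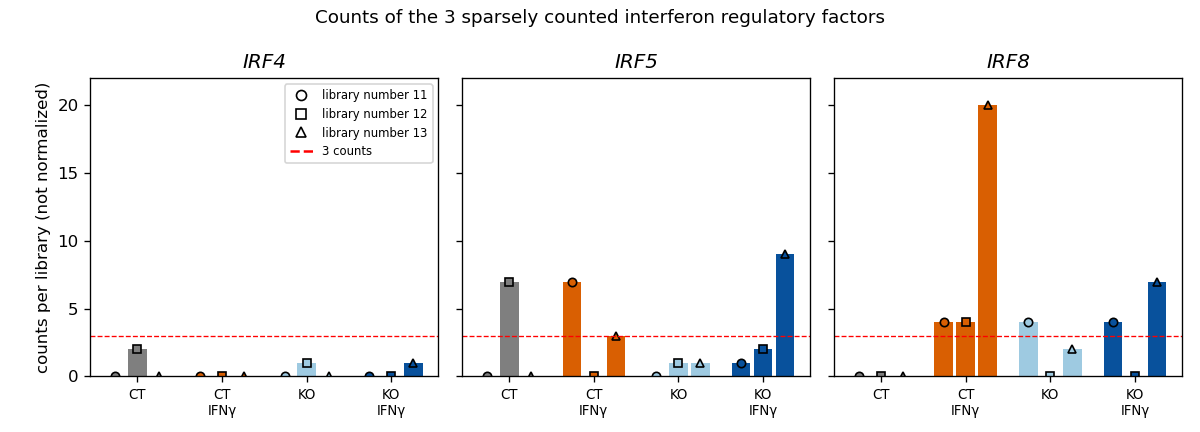
Counts per library, not normalized, of IRF4, IRF5 and IRF8 in the 4 groups; each bar with its point is 1 library and the dashed line marks 3 counts. IRF8 was at 0 in the 3 untreated HT1376 CT libraries and at 4, 4 and 20 counts with IFNγ, and IRF4 never passed 2 counts.

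Counted together, 6 of the 7 members tested rose with IFNγ in HT1376 CT, where 3.53% of 24416 genes were called higher and 5.35% were called in either direction. Their median log2 fold change was 1.64, against -0.02 over all genes tested. For 6 of the 7 the treated and untreated libraries did not overlap, which held for 10.3% of all genes in the higher direction. Both counts include IRF8, which had 0 counts untreated and met the filter of 10 counts only through its 28 treated counts. Its call and its lack of overlap therefore add no support. IRF1, IRF2, IRF3, IRF7 and IRF9 were not limited in this way. In HT1376 FOXP3 KO 3 of 7 rose, IRF1, IRF7 and IRF9, where 0.978% of 24131 genes were called higher and 0.982% in either direction. These fits did not pair the libraries. With the replicate number as a block IRF2 was called in FOXP3 KO too, beside 5.53% of genes in either direction, against 18.6% in CT. IRF2 also passed with no filter, by DESeq2 and in 1 fit over all 12 libraries. The median in FOXP3 KO without the block was 1.44, against -0.01 over all genes, and 4 of 7 did not overlap, against 6.11% of genes. No member was called lower with IFNγ in either line.

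Levels per kilobase of merged exons allow the members to be ordered within a group. In both untreated lines the order was IRF3, IRF1, IRF2, IRF7 and IRF9, with IRF3 at 9.68 CPM per kilobase in CT and 7.91 in FOXP3 KO and IRF1 at 5.12 and 4.16. The ranges of IRF2 and IRF7 overlapped in CT, and the other neighbours among these 5 did not overlap in either line. With the length of the longest transcript IRF1 and IRF3 overlapped in both untreated lines. Under IFNγ IRF1 came first, at 71.6 CPM per kilobase in CT and 30.8 in FOXP3 KO, or 68.1% and 60.7% of the summed level of the 8 members. IRF3 came second at 14.0 and 9.05. IRF7 and IRF2 followed with overlapping ranges, and IRF9 came after them at 1.11 and 1.32 CPM per kilobase. IRF4, IRF5 and IRF8 averaged at most 0.103 CPM per kilobase in every group. By the length of the canonical transcript, tried after the data were seen, IRF1 made up 76.3% and 69.3%, and IRF2 stood above IRF7. By that length the ranges of IRF7 and IRF9 overlapped in FOXP3 KO with IFNγ.

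The balance of IRF1 to IRF2, an activator and a competitor for the same elements, was taken as the ratio of their counts within a library. In HT1376 CT it was 2.23, 2.50 and 2.06 untreated and 17.1, 14.0 and 15.8 with IFNγ. For FOXP3 KO it was 3.67, 2.40 and 2.63 untreated and 13.9, 11.0 and 12.7 with IFNγ. Treated libraries were above untreated ones in both lines, by 2.79 in CT and 2.13 in FOXP3 KO on the log2 scale. Between the lines the ratio differed by 0.34 untreated, with overlapping libraries, and by -0.32 under IFNγ, without overlap. With 3 libraries against 3 the exact permutation test, two-sided, cannot go below 0.1, and it gave 0.1, 0.1, 0.2 and 0.1 in this order (0.133, 0.133, 0.2 and 0.133 adjusted over the 4 comparisons), so none passed.

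The lines were then compared at each treatment, on the libraries already used for the IFNγ effects, so the comparisons share libraries and their values are not independent. Without IFNγ 2 of 5 members tested were lower in HT1376 FOXP3 KO, where 18.2% of 25320 genes were called lower and 32.1% in either direction. IRF2 was 1.54-fold lower (log2 fold change -0.62, SE 0.15, adjusted p = 0.0103), a call lost without CT library 13 or KO library 11. IRF7 was 1.70-fold lower (-0.77, SE 0.25, adjusted p = 0.0347), and that call held only when CT library 11 was the one left out, since each of the other 5 moved it past the threshold. IRF1 had -0.28 (adjusted p = 0.106), IRF3 -0.28 (adjusted p = 0.104) and IRF9 0.05 (adjusted p = 0.929). The libraries of the lines did not overlap for 4 of the 5 members, all but IRF9, which held for 25.7% of genes in the lower direction.

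Under IFNγ the lines stood further apart for IRF1. It was 2.26-fold lower in HT1376 FOXP3 KO (log2 fold change -1.17, SE 0.10, adjusted p = 6.3e-06), with every KO library below every CT library. IRF2 was 1.80-fold lower (-0.85, SE 0.15, adjusted p = 0.00121) and IRF3 was also lower (-0.59, SE 0.15, adjusted p = 0.0124). IRF7 was 1.91-fold lower (-0.94, SE 0.25, adjusted p = 0.0178). In all 4 of 7 members tested were lower, where 15.7% of 24388 genes were called lower and 28.9% in either direction. IRF8 had 28 counts in CT and 11 in FOXP3 KO (-2.05, adjusted p = 0.111), and IRF9 differed by 0.29 (adjusted p = 0.433, 95% interval -0.26 to 0.83). The lines did not overlap for 5 of the 7, against 22.6% of genes in the lower direction. These 5 include IRF8, whose lowest CT library (0.387 CPM) and highest KO library (0.267 CPM) both held 4 counts. Its lack of overlap therefore rests on counts near the floor and adds no support. IRF3 lost its call without CT library 13 or KO library 11, and IRF7 without CT library 12 or 13 or KO library 11 or 13. The summed fibroblast and myeloid markers given above moved with the same contrast, and their part was not tested.

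**Figure D3:**
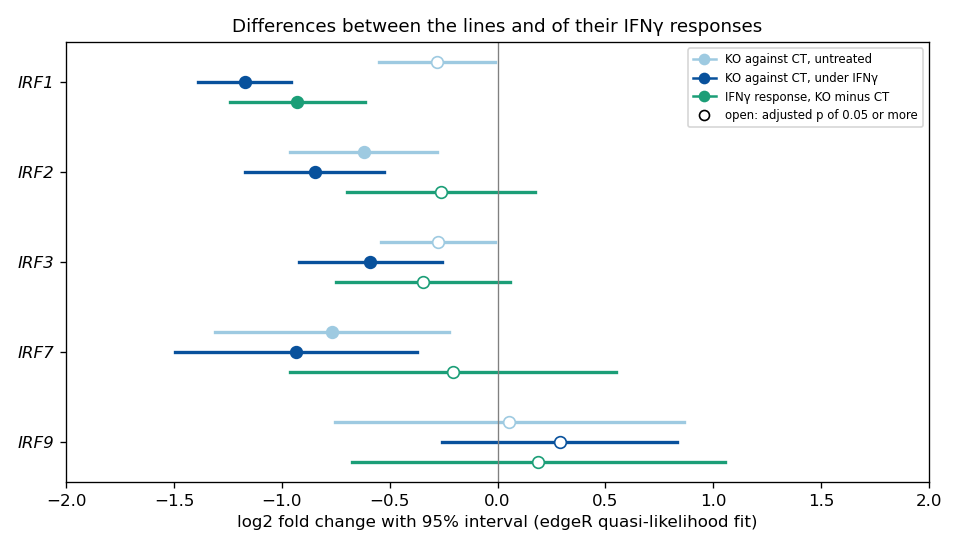
Log2 fold change of 5 members with its 95% interval, on the horizontal axis, for HT1376 FOXP3 KO (KO) against HT1376 CT untreated, the same under IFNγ, and the difference of the IFNγ responses; filled points have an adjusted p under 0.05. For IRF1 the lines differed by -1.17 under IFNγ and by an uncalled -0.28 untreated, IRF2 and IRF7 were called at both treatments, and every interval of IRF9 spanned 0.

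The direct test of whether the IFNγ response differed between the lines is the interaction over all 12 libraries. IRF1 was the only member called, of 7 tested, with a log2 difference of -0.93 (SE 0.15, adjusted p = 0.0171), where 0.111% of 27806 genes, or 31, were called in either direction and 0.108% had a smaller response in HT1376 FOXP3 KO. Its rank by p-value was 20. This fit did not pair the libraries, and the number of genes called depended on that. With the replicate number as a block 336 genes were called, 190 with a negative difference and 146 with a positive one. With the block within each line 1320 were called, 572 negative and 748 positive. Between libraries of the same number IRF1 changed by 3.93, 3.66 and 3.83 on the log2 scale in CT and by 2.76, 3.03 and 2.89 in FOXP3 KO, so the 2 sets of 3 did not overlap. With 1 library left out the difference was -0.82 to -0.92, and in 8 of 12 such fits the adjusted p passed 0.05, up to 0.101. These were all fits but those without CT library 12, treated CT library 11 or 12, or KO library 12. None of these 12 fits paired the libraries. In 8 other settings, the replicate block among them, IRF1 stayed called at -0.92 to -0.95. With an absolute log2 fold change over 1 also required it was not called.

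For the other members the interval of the difference spanned 0, save for IRF8. IRF2 had -0.26 (95% interval -0.70 to 0.17, adjusted p = 0.918), IRF3 -0.35 (-0.75 to 0.06, adjusted p = 0.857), IRF7 -0.21 (-0.96 to 0.55, adjusted p = 0.987) and IRF9 0.19 (-0.68 to 1.05, adjusted p = 0.999). The sparse IRF5 had 1.11 (-3.34 to 5.56, adjusted p = 0.992). Changes between libraries of the same number were 1.59 to 2.27 for IRF9 in CT and 2.05 to 2.22 in FOXP3 KO, which overlapped. For IRF3 they were 0.34 to 0.65 in CT and 0.04 to 0.43 in FOXP3 KO, which overlapped at library 13 of the knockout. IRF8 had an adjusted p of 0.517, and its fitted difference rested on a group at 0 counts.

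**Figure D4:**
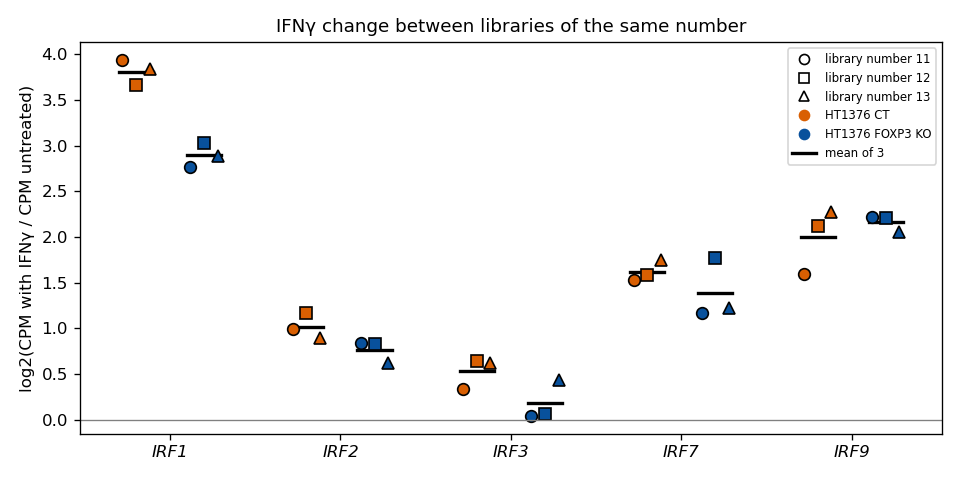
Log2 of the CPM with IFNγ over the CPM untreated, on the vertical axis, for libraries of the same number within HT1376 CT and HT1376 FOXP3 KO; each point is 1 pair of libraries and the black line the mean of 3. IRF1 lay at 3.66 to 3.93 in CT and 2.76 to 3.03 in FOXP3 KO, whereas the IRF9 pairs of the 2 lines overlapped.

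Some members share exons with other genes, which limits how their counts can be assigned, as the strand setting of the counting was not given. In the GENCODE 44 annotation 22.9% of the merged exon bases of IRF1 lie under exons of the antisense gene IRF1-AS1, named C5orf56 in the count table. C5orf56 averaged 19.6 CPM in untreated CT, 76.2 with IFNγ, 19.6 in untreated FOXP3 KO and 50.6 with IFNγ. It rose by 1.99 on the log2 scale in CT and by 1.38 in FOXP3 KO (adjusted p = 0.0325), and was lower in the knockout under IFNγ (log2 fold change -0.55, adjusted p = 0.0205). The treated level of IRF1 was 878 CPM in CT and 378 CPM in FOXP3 KO. What the shared exons did to the counts of IRF1 was not tested. BCL2L12, on the other strand, covers 19.3% of the exon bases of IRF3 and did not pass for IFNγ in CT (0.05, adjusted p = 0.934) or in FOXP3 KO (-0.01, adjusted p = 0.999). The gene named AL136295.5 covers 23.9% of those of IRF9 on the same strand and had at most 13 counts in a library. On the same strand no strand setting can separate their reads. What the shared exons did to the counts of IRF3 and IRF9 was not tested. AC099343.2, on the strand of IRF2 with no shared exon bases, was at 1.33 to 3.70 CPM on average in the 4 groups.

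The genes whose levels over the 12 libraries were most like those of a member were found by Pearson's r among 15469 genes. The points share their line, treatment and library, so these values describe and do not test. IRF1 was closest to the MHC class II chains HLA-DPA1, HLA-DPB1 and HLA-DRB1, each at r = 0.997 (Spearman's rho 0.951, 0.932 and 0.909), and HLA genes have near-identical copies that can share reads. IRF2 was closest to the cytokine IL32 (r = 0.992), AL445437.1 (0.983) and STAT3 (0.978). IRF3 was closest to the lysyl-tRNA synthetase gene KARS (0.957), CCDC68 (0.956) and NFKBIZ (0.951). IRF7 went with the antiviral genes ISG15 (0.978) and RSAD2 (0.977) and with SP100 (0.976). IRF9 went with AC067945.1 (0.980), the pseudogene GBP1P1 (0.978) and APOL4 (0.969). Between members, IRF2 and IRF7 were most alike (r = 0.949, rho 0.951) and IRF3 and IRF9 least (r = 0.432, rho 0.189).

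Around the members, the receptors, kinases and STAT proteins of interferon signalling rose in part. Of 11 genes tested 5 were called higher with IFNγ in HT1376 CT and 2 in HT1376 FOXP3 KO, none lower, with medians of 0.49 and 0.12, where 3.53% and 0.978% of all genes were called higher. STAT2, the ISGF3 partner of IRF9, went from 39.9 to 211 CPM in CT and from 51.1 to 172 CPM in FOXP3 KO, log2 fold changes of 2.42 and 1.77. STAT3, known from cytokine signalling, had 0.79 (adjusted p = 0.000701) and 0.64 (adjusted p = 0.0410). JAK2 had 1.36 (adjusted p = 9.1e-05) in CT and 0.68 (adjusted p = 0.0977) in FOXP3 KO, and the receptor chain IFNAR2 had 1.40 (adjusted p = 0.00375) and 0.44 (adjusted p = 0.909). Between the lines 3 were higher and 6 lower in the knockout untreated, where 32.1% of all genes were called and 18.2% were lower, and 1 was higher and 6 lower under IFNγ, where 28.9% of all genes were called and 15.7% were lower. None passed the interaction.

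Interferon genes themselves were barely counted. Only 4 of 10 ligands could be tested in CT and 1 in FOXP3 KO, and none was called with IFNγ. IFNE, an epithelial type I interferon, averaged 1.19 CPM in untreated CT and 0.309 CPM in untreated FOXP3 KO, where it was lower (log2 fold change -1.92, adjusted p = 0.0283), and it was also lower under IFNγ (-2.16, adjusted p = 0.0296). The type III interferons IFNL1, IFNL2 and IFNL3 had at most 10 counts in a library, and IFNL2 and IFNL3 are near-identical copies. IFNG did not reach the 10 counts needed for a test.

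Among 13 inhibitors of the pathway 3 rose in CT, the ISG15 protease and receptor inhibitor USP18 (2.02), SOCS1 (2.02) and SOCS3 (1.72), and in FOXP3 KO only SOCS1 (2.22, adjusted p = 0.00284) was called. USP18 had 1.28 in FOXP3 KO (adjusted p = 0.210) and SOCS3 0.44 (adjusted p = 0.999). Of all genes tested 3.53% were called higher with IFNγ in CT and 0.978% in FOXP3 KO. In the knockout 1 of the 13 was higher and 3 lower at either treatment, beside 32.1% of all genes called in either direction untreated and 28.9% under IFNγ. The 3 lower ones under IFNγ included USP18, at 5.47 CPM against 39.1 CPM in CT (-2.79), and SOCS3, at 2.87 against 14.8 CPM (-2.34).

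Sensors, adaptors and kinases upstream of IRF3, IRF5 and IRF7 were called higher with IFNγ for 7 of 18 genes in CT and 3 of 17 in FOXP3 KO. The shares of all genes called higher were 3.53% and 0.978%. The RNA helicase gene DDX58, which encodes RIG-I, rose by 2.69 and 1.55 (adjusted p = 0.0121 in the knockout), and IFIH1, which encodes MDA5, rose from 43.6 to 253 CPM in CT and from 30.5 to 112 CPM in FOXP3 KO. The double-stranded RNA receptor gene TLR3 rose by 2.59 in CT and had 1.18 in FOXP3 KO (adjusted p = 0.128). TLR4 rose by 2.57 in CT, from 3.21 to 18.2 CPM, and had at most 4 counts in a knockout library. Between the lines 9 of 18 were lower and 4 higher untreated in the knockout, and 9 lower and 1 higher under IFNγ, against 18.2% and 15.7% of all genes called lower.

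Partners and cofactors of the members gave 1 call of 9 tested with IFNγ in each line, the AP-1 family gene BATF2. Over all genes 3.53% in CT and 0.978% in FOXP3 KO were called higher. BATF2 went from 1.55 to 109 CPM in CT (6.19) and from 0.115 to 12.2 CPM in FOXP3 KO (6.47). In FOXP3 KO it held 7 counts untreated and 662 with IFNγ, so sizes that use the untreated knockout level rest on counts near the floor. BATF2 was lower in the knockout, with log2 fold changes of -3.49 untreated (adjusted p = 0.00379) and -3.12 under IFNγ. Between the lines 3 partners were higher and 2 lower at either treatment, beside the 32.1% and 28.9% of all genes called in either direction. The interaction of BATF2 was 0.26 (adjusted p = 0.995).

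Genes known as IRF1 targets were called higher with IFNγ for 14 of 17 in CT and 8 of 17 in FOXP3 KO, with medians of 3.59 and 2.43. The share of all genes called higher also differed between these fits, at 3.53% in CT and 0.978% in FOXP3 KO. CIITA, the master regulator of MHC class II, went from 0.585 to 310 CPM in CT (9.33) and from 0.745 to 76.0 CPM in FOXP3 KO (6.89). IDO1, the tryptophan-degrading enzyme, went from 0.168 to 102 CPM and from 0.0143 to 14.5 CPM (9.25 and 9.13). Its untreated libraries held 11 counts in CT and 1 in FOXP3 KO, against 3662 and 845 with IFNγ. IDO1 therefore met the count filter in FOXP3 KO only through treated counts, and 9.13 rests on an untreated level under the floor. The cytokine IL7 rose by 5.85 in CT, where it held 2 counts untreated and 75 treated, and had 12 counts with IFNγ in FOXP3 KO (adjusted p = 0.574). In CT it too met the filter only through treated counts. The 14 called in CT include IL7 and the 8 in FOXP3 KO include IDO1, and these calls give a direction but no measured size. Under IFNγ 11 of the 17 were lower in the knockout, against 15.7% of all genes, and 2 higher. The exception in size was GBP2, an interferon-inducible GTPase, which was higher in the knockout at 83.4 against 1.02 CPM untreated and 445 against 173 CPM under IFNγ, and which was the only one of the 17 to pass the interaction (-4.98, adjusted p = 4.5e-08).

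The ISGF3 targets tested were all called higher with IFNγ in CT, 26 of 26, and 23 of 26 in FOXP3 KO, with medians of 2.65 and 1.94. Among all genes 3.53% and 0.978% were called higher. IFI44L rose by 6.39 and 5.58, XAF1 by 5.78 and 6.35, OAS2 by 5.41 and 4.87 and MX2 by 4.67 and 1.95. XAF1 reached 264 CPM in CT and 88.4 CPM in FOXP3 KO, OAS2 270.5 and 64.3 CPM, and MX2 34.3 and 4.72 CPM. Under IFNγ 19 of 26 were lower in the knockout and none higher, and untreated 14 were lower and 2 higher, against 15.7% and 18.2% of all genes called lower. STAT2 and USP18 stand on this list and on another. Of the 26, 1 passed the interaction, the antiviral membrane protein gene IFITM1, with a smaller response in the knockout (-1.81, adjusted p = 0.0153).

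**Figure D5:**
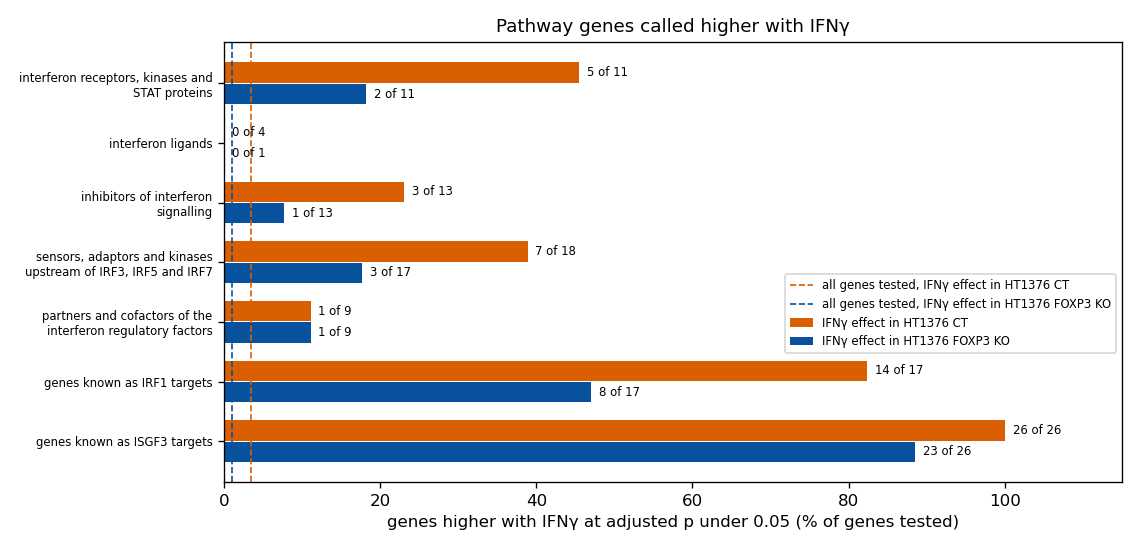
Percent of the genes tested on each pathway list that were called higher with IFNγ (horizontal axis, adjusted p under 0.05) in HT1376 CT and HT1376 FOXP3 KO, with the number called of the number tested; dashed lines give the 3.53% and 0.978% of all genes tested. The bars run from 0 of 4 interferon ligands to 26 of 26 ISGF3 targets in CT.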

How the data were processed

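RNA-seq of total RNA (ribosomal RNA depleted, paired ends) gave deposited raw counts per gene, which the authors made by alignment with STAR 2.7.11a (version per the labels) to GRCh38 with Ensembl 103 genes, removal of Mycoplasma reads with Kraken, and htseq-count. The strand setting and the handling of reads with several positions were not given in the sources used here. From the counts, edgeR 4.0.16 (R 4.3.3) with TMM factors and quasi-likelihood tests was fitted on genes with at least 10 counts over the libraries of a comparison, 6 libraries for 2 groups and 12 for the interaction, with Benjamini-Hochberg adjustment over all genes tested. Scripts were tested on simulated counts. Alternatives were DESeq2 1.42.0, its size factors, other filters, a fold threshold, the replicate block, the bias-adjusted deviance, 1 fit over 12 libraries, other transcript lengths, and each library left out in turn. Of the genes on the lists, 1 is not reported here. The members, lists and tests were chosen with earlier results of these data known.

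Within a line, libraries with the same number in the labels deviated together from their group means over 15677 genes (r = 0.435 to 0.488 in CT and 0.539 to 0.692 in FOXP3 KO), and so did those of different lines (0.170 to 0.422), against -0.556 to 0.228 for different numbers, so the numbers were taken to pair the libraries. No 2 replicates agreed within sampling noise (chi-square per degree of freedom of 10.3 to 42.4). Named were all 8 members, the up to 4 genes per list with the largest called change with IFNγ in CT (or, with none called, the highest mean CPM), the 3 genes most like each member with at least 100 counts, FOXP3, and genes that overlap a member. CSF1R, XCR1, ITGAM, CD3E, COL1A1, COL1A2, DCN, LUM, PMEL, UPK3A, CLEC9A, IFITM1 and IFNG were named after their values were seen. Annotation came from GENCODE 44 and promoter sequences from RefSeq.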

Additional observations from a re-analysis of the deposited data

Results flagged for a closer look

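Among the values above, 3 differed between the lines by the test of the difference of IFNγ responses. IRF1 responded less in HT1376 FOXP3 KO than in HT1376 CT, a log2 difference of -0.93 (edgeR, adjusted p = 0.0171). In each of the 3 library numbers, which are the same libraries, the change was smaller in the knockout. The IRF1 call was lost in 8 of 12 fits with 1 library left out, with adjusted p up to 0.101, and these fits did not pair the libraries. GBP2 had a log2 difference of -4.98 (adjusted p = 4.5e-08), from an untreated level of 83.4 CPM in the knockout against 1.02 CPM in CT. IFITM1 had a log2 difference of -1.81 (adjusted p = 0.0153), with a log2 fold change with IFNγ of 2.45 in CT and 0.64 in the knockout, from untreated levels of 11.8 and 38.1 CPM. For all 3, a difference between the lines and a difference between clones cannot be told apart.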

How the results depend on the processing

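Of 494 fold changes of members under the alternatives, 451 kept their direction and side of the threshold, 29 kept the direction but lost the call, 5 gained it and 9 changed sign. The 5 gained were all IRF2 with IFNγ in HT1376 FOXP3 KO, where the replicate block gave 0.78 (0.77 with the bias-adjusted deviance), and 3 of them came from fits without the block, with no filter, by DESeq2 and in 1 fit over 12 libraries. The block changed no other call of a member. It moved the number of genes called with IFNγ from 1307 to 4530 in CT and from 237 to 1334 in FOXP3 KO. For the interaction it moved the number from 31 to 336. Signs changed for values that were not called, and with 1 exception when 1 library was left out. The exception was the interaction of IRF5, -0.049 with the block within each line. With 1 library left out, IRF5 ranged from -0.33 to 5.48 for IFNγ in CT, from -1.10 to 0.73 for the lines under IFNγ and from -3.39 to 2.47 for the interaction. IRF9 ranged from -0.11 to 0.42 for the untreated lines and from -0.083 to 0.45 for the interaction, and IRF7 from -0.41 to 0.034 for the interaction. With an absolute log2 fold change over 1 also required, 0 members were called between the untreated lines, 1 under IFNγ and 0 for the interaction. Of all genes tested 19.5%, 19.0% and 0.101% passed this rule. Without the fold threshold 2, 4 and 1 members were called. With 1 library left out, also without the fold threshold, 0 to 2, 2 to 4 and 0 to 1 were called. Depth limits IRF4, IRF5 and IRF8, whose counts lay near the floor.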
